A study of Mus musculus with 3 samples.

Results

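The genes described here encode splicing factors of the SR, hnRNP and SF3 groups together with the Prpf and Snrp proteins of the small nuclear ribonucleoprotein particles (snRNPs). Every protein-coding gene whose symbol starts with Srsf, Hnrnp, Sf3a, Sf3b, Prpf or Snrp, and whose entry stood alone at its locus on GRCm38, was taken, whatever its values. This gave 52 of 15189 named protein-coding genes: 9 Srsf, 16 Hnrnp, 7 Sf3a or Sf3b, 11 Prpf and 9 Snrp genes. RNA was sequenced from 3 libraries of C57/BL6 mouse heart fibroblasts, 1 for each group, from mice labelled 12 weeks old. The uninjured library came from hearts of wild type mice with no infarct, and its cells were plated for 4 hours and collected as the cells that stuck to plastic. The library labelled FSP1+ held GFP+ cells sorted 10 days after myocardial infarction from mice in which the promoter of FSP1 (S100a4) drives GFP, after exclusion of CD45+ and CD31+ cells, as the methods of the study describe. The library labelled αSMA+ held GFP+ cells sorted 10 days after infarction from mice in which the promoter of αSMA (Acta2) drives GFP, on GFP alone. Hearts were pooled for each sort, and either promoter can be active in cells other than fibroblasts. Injury, transgene, sorting and plating cannot be told apart in the comparisons with the uninjured library.

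There were no replicates, so no test, standard deviation or p-value could be given, and every difference below is one between libraries and not between conditions. Abundance was measured in FPKM, fragments per kilobase of transcript scaled for the mapped fragments within each table. Each pair of libraries was read from its own table, and the 3 tables had been scaled separately. The same library therefore differed between its tables, by median factors of 1.15 for FSP1+, 1.19 for αSMA+ and 0.87 for uninjured. The measure of difference was the log2 ratio of FPKM with 1 added, which understates the change of low genes. A gene counted as measured at 1 FPKM or more in either library of a pair and as higher or lower where it differed by at least 2-fold. The tables give no read numbers, so the depth is unknown and counting error could not be given. One read was worth 1.35 times as many FPKM in αSMA+ as in FSP1+, 1.57 times as many in uninjured as in FSP1+, and 0.99 times as many in uninjured as in αSMA+, by the steps between low values. S100a4 stood at 30.8 FPKM in the library labelled FSP1+ and at 12.0 FPKM in the library labelled αSMA+. Acta2, the gene whose promoter marks αSMA+ cells, stood at 279.8 FPKM in the library labelled FSP1+ and at only 65.0 FPKM in the library labelled αSMA+, which goes against the label, so libraries are named here by their labels. Whether the labels or columns of the sorted libraries were exchanged was not tested, and if they were, FSP1+ and αSMA+ would trade places in every result below, and each direction between them would turn. In these bulk samples, fewer cells of a type and less RNA per cell cannot be told apart.

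Splicing removes introns from pre-mRNA in the spliceosome, which is built anew on each intron from the U1, U2, U4, U5 and U6 snRNPs and many further proteins. The SF3A and SF3B complexes belong to the U2 snRNP and hold it at the branch point, the Snrp proteins form the Sm ring and other core parts of snRNPs, and several Prpf proteins build or activate the U4/U6.U5 tri-snRNP. SR proteins mostly bind exonic enhancers and promote exon inclusion, hnRNPs often bind silencers and oppose it, and the balance between both sets which exons are used. Fibroblasts that turn into myofibroblasts are known to switch isoforms, such as the extra domains of fibronectin, but gene-level FPKM does not measure isoforms.

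The promoters of 5 members are shown because these genes lay toward the ends of the comparison of αSMA+ with uninjured: Hnrnpf, Snrpa1, Srsf7 and Srsf1 were among the members of highest ratio, as were Snrpd1 and Sf3b4, which are not shown, and Prpf40b had the lowest ratio. Each sequence covers 250 bases before and 50 bases from the start of the gene in RefSeq on GRCm38.p6, 5′ to 3′ on the strand of the gene. RefSeq lists 4 start sites for Hnrnpf and 2 for Prpf40b, of which 1 is shown. Capitals mark motifs found on either strand. The letters of each motif are given after the sequences, and those printed hold ETS sites, GC boxes, CCAAT boxes or E-boxes. Motifs may overlap at their ends by a few letters, and a match describes letters only. The windows lie at chr6:117900090-117900389 on the plus strand for Hnrnpf, chr7:66060086-66060385 on the plus strand for Snrpa1, chr17:80207256-80207555 on the minus strand for Srsf7, chr11:88047123-88047422 on the plus strand for Srsf1 and chr15:99294991-99295290 on the plus strand for Prpf40b.
Hnrnpf: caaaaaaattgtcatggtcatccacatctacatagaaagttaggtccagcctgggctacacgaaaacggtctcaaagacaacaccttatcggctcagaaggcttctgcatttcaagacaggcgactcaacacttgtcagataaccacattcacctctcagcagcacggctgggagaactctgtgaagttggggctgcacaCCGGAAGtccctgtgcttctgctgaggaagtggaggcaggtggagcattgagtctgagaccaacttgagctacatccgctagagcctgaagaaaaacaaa
Snrpa1: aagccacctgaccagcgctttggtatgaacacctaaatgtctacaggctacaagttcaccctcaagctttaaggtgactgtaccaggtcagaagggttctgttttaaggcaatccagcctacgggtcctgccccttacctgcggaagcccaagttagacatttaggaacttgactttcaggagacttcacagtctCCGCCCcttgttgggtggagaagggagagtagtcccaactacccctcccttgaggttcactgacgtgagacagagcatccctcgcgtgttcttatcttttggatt
Srsf7: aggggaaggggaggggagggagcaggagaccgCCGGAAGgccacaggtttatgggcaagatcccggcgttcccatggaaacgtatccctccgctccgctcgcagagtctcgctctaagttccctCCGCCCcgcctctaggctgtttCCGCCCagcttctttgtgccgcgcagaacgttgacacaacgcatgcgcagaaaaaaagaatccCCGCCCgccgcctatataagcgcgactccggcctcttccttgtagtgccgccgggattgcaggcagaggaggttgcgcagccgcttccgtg
Srsf1: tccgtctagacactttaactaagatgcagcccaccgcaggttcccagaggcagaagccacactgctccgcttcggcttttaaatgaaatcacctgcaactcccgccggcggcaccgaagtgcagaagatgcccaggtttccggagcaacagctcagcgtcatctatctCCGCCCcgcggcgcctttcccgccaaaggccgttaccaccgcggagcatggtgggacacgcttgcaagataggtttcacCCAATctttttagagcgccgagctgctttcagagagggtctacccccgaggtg
Prpf40b: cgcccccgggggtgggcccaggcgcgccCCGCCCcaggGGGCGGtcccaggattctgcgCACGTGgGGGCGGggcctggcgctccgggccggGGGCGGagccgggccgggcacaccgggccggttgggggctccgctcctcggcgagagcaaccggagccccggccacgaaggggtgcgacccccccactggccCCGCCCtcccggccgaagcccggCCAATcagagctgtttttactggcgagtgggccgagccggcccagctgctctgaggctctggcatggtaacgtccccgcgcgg

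RefSeq gave a promoter for 44 of the 52 members, and the same window for 11952 named protein-coding genes. The ETS site, searched for as CCGGAAG and common in housekeeping promoters, was found in 16 member promoters (36.4%) and in 11.9% of all promoters, and the ratio of these shares was the highest of the motifs searched, as a description without a test. Hnrnpf and Srsf7 carried it in the windows printed above, and it was also held by the promoters of Srsf5, Srsf11, Hnrnpd, Sf3a1, Sf3a2, Sf3b2, Sf3b6, Prpf4b, Prpf6, Prpf19, Snrpb2, Snrpc, Snrpe and Snrpg. The GC box (GGGCGG), bound by Sp factors, was found in 70.5% of member promoters and in 47.2% of all promoters. The box of letters CCAAT was found in 47.7% and 39.3%. The E-box was searched for as CACGTG and was found in 13.6% and 8.23%. YY1, whose motif was taken as AAGATGGC, had a match in 6.82% and 3.25%. A TATA box (TATAAA) was found in 2 member promoters, those of Hnrnpm and Srsf3 (4.55%), and in 14.0% of all promoters. Genes on both sides of 0 in the comparisons carried these motifs, as the promoter of Prpf40b with its GC boxes, E-box and CCAAT box shows.

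As deposited, 30 of 52 members read highest in the library labelled αSMA+ and lowest in uninjured, and some left this order when rescaled, as listed below. Of 51 members measured in αSMA+ over uninjured, 27 (52.9%) were at least 2-fold higher and 0 were lower, where 18.3% of all 10480 named protein-coding genes measured were higher and 6.38% were lower. The median log2 ratio of the members was 1.10, and that of all genes 0.11. Srsf12, at 0.630 FPKM in αSMA+ and 0.761 FPKM in uninjured, was the member not measured here. In FSP1+ over uninjured, 7 of 52 members (13.5%) were higher and 0 were lower, where 15.2% of all 10748 genes were higher and 12.1% were lower, so the share of higher members was close to that of all genes. The median of the members was 0.53 there and that of all genes 0.12, and 47 of the 52 members lay above 0. In FSP1+ over αSMA+, 1 member was higher and 6 (11.5%) were lower, where 20.1% of all 10092 genes were higher and 12.7% were lower. The median of the members was -0.23 and that of all genes 0.10. These 3 comparisons share libraries, so they are not independent of each other.

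**Figure D1:**
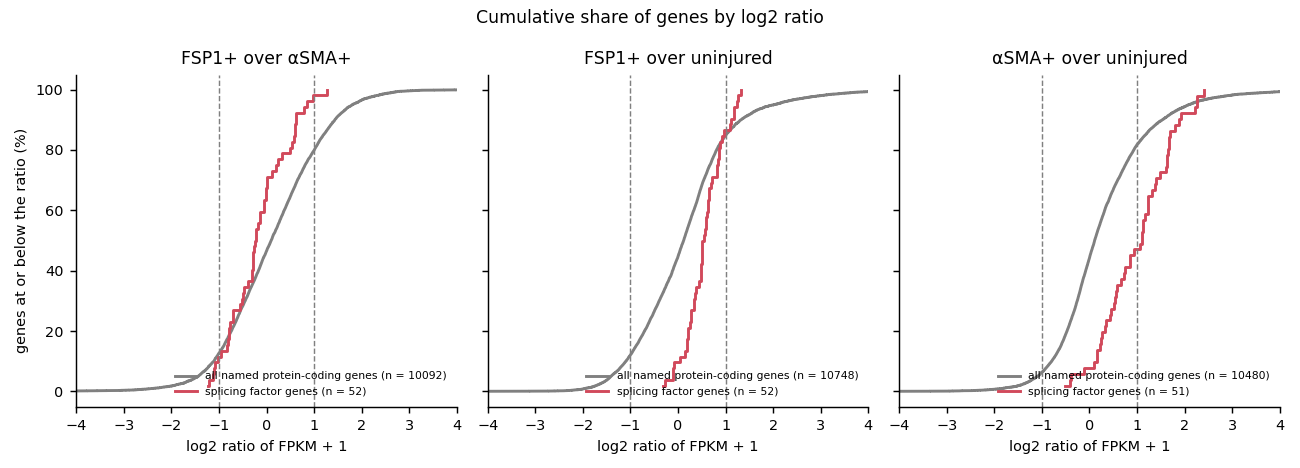
Cumulative share of genes, in percent, against the log2 ratio of FPKM + 1 for all named protein-coding genes (grey) and the splicing factor genes (red) in each pair of libraries, with dashed lines at 2-fold. In αSMA+ over uninjured the red curve lies to the right of the grey over most of its course, with medians of 1.10 and 0.11. The members spread less widely than all genes in each pair, most so in FSP1+ over uninjured.

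Scaling moved the counts against the uninjured library. Rescaled to TPM, which gives every library the same sum, the median of all named protein-coding genes in αSMA+ over uninjured went from 0.11 to -0.43. On that scale 14 of 52 members were higher, where 9.63% of all genes were higher, and 2 members, Prpf40b and Sf3b5, were lower, where 19.7% of all genes were lower. The median of the members there was 0.47, and 18 of 51 members lay below 0 where 4 had done so as deposited. The 14 that turned were Srsf9, Hnrnpa0, Hnrnpr, Hnrnpul1, Sf3a1, Prpf4, Prpf4b, Prpf6, Prpf8, Prpf19, Snrpc, Snrpd2, Snrpe and Snrpg, and none of them had reached 2-fold. TPM left 3 members higher in FSP1+ than in uninjured, Hnrnpf, Hnrnph1 and Snrpa1, and 10 of 52 members below 0, where 11.8% of all genes were higher on that scale and 18.4% were lower. Because the tables were scaled separately, ratios taken through the third library differed from direct ratios by 0.25 log2 units, and this route gave 15 of 52 members higher in FSP1+ than in uninjured, where 20.4% of all genes were higher. It gave 12 of 52 lower in FSP1+ than in αSMA+, where 19.1% of all genes were lower.

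The order of the 3 libraries, read from the sign of each pair without a threshold, was αSMA+, FSP1+, uninjured from high to low for 30 members, where 18.15% of 9701 genes had this order. On the TPM scale FSP1+ rose above αSMA+ for Hnrnph1, Hnrnpm, Prpf6, Sf3a1 and Sf3a2 among these. It fell below uninjured for Prpf4b and Snrpb2, as well as for Prpf6 and Sf3a1. For Prpf4b, Prpf6 and Sf3a1 αSMA+ fell below uninjured as well. FSP1+ stood above αSMA+ and uninjured lowest for 12 of 52 members, among them Srsf5, Srsf9 and the Sm genes Snrpb, Snrpd2, Snrpe and Snrpg, and for 22.61% of all genes, a similar share. On the TPM scale αSMA+ fell below uninjured for Srsf9, Hnrnpa0, Hnrnpul1, Prpf8, Snrpc, Snrpd2, Snrpe and Snrpg of these. For Prpf8 FSP1+ fell below uninjured as well on that scale. Through the third library FSP1+ fell below αSMA+ for Srsf5, Hnrnpa0, Prpf38a, Snrpb and Snrpg. That route also put αSMA+ below uninjured for Srsf9, Hnrnpul1, Prpf8 and Snrpd2. For Srsf12, Hnrnpul2, Sf3b2, Sf3b5 and Prpf40b (5 members) αSMA+ stood lowest, below uninjured and then FSP1+, an order found in 17.2% of all genes. For Hnrnpa3, Hnrnpll, Hnrnpr, Prpf4 and Prpf19 (5 members) FSP1+ stood lowest and αSMA+ highest, as in 16.38% of all genes. Of these, Hnrnpll, Prpf4 and Prpf19 had FSP1+ above uninjured through the third library, and Hnrnpr, Prpf4 and Prpf19 had αSMA+ below uninjured on the TPM scale. Neighbouring libraries in these orders often differed by little, as the values below show.

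The members were abundant genes. Their median was 31.8 FPKM in the library labelled FSP1+, 38.7 FPKM in αSMA+ and 18.7 FPKM in uninjured, and 30, 34 and 33 of the 52 lay above the upper quartile of the genes at 1 FPKM or more in those libraries. The plot of FPKM by gene shows 51 of them.

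**Figure D2:**
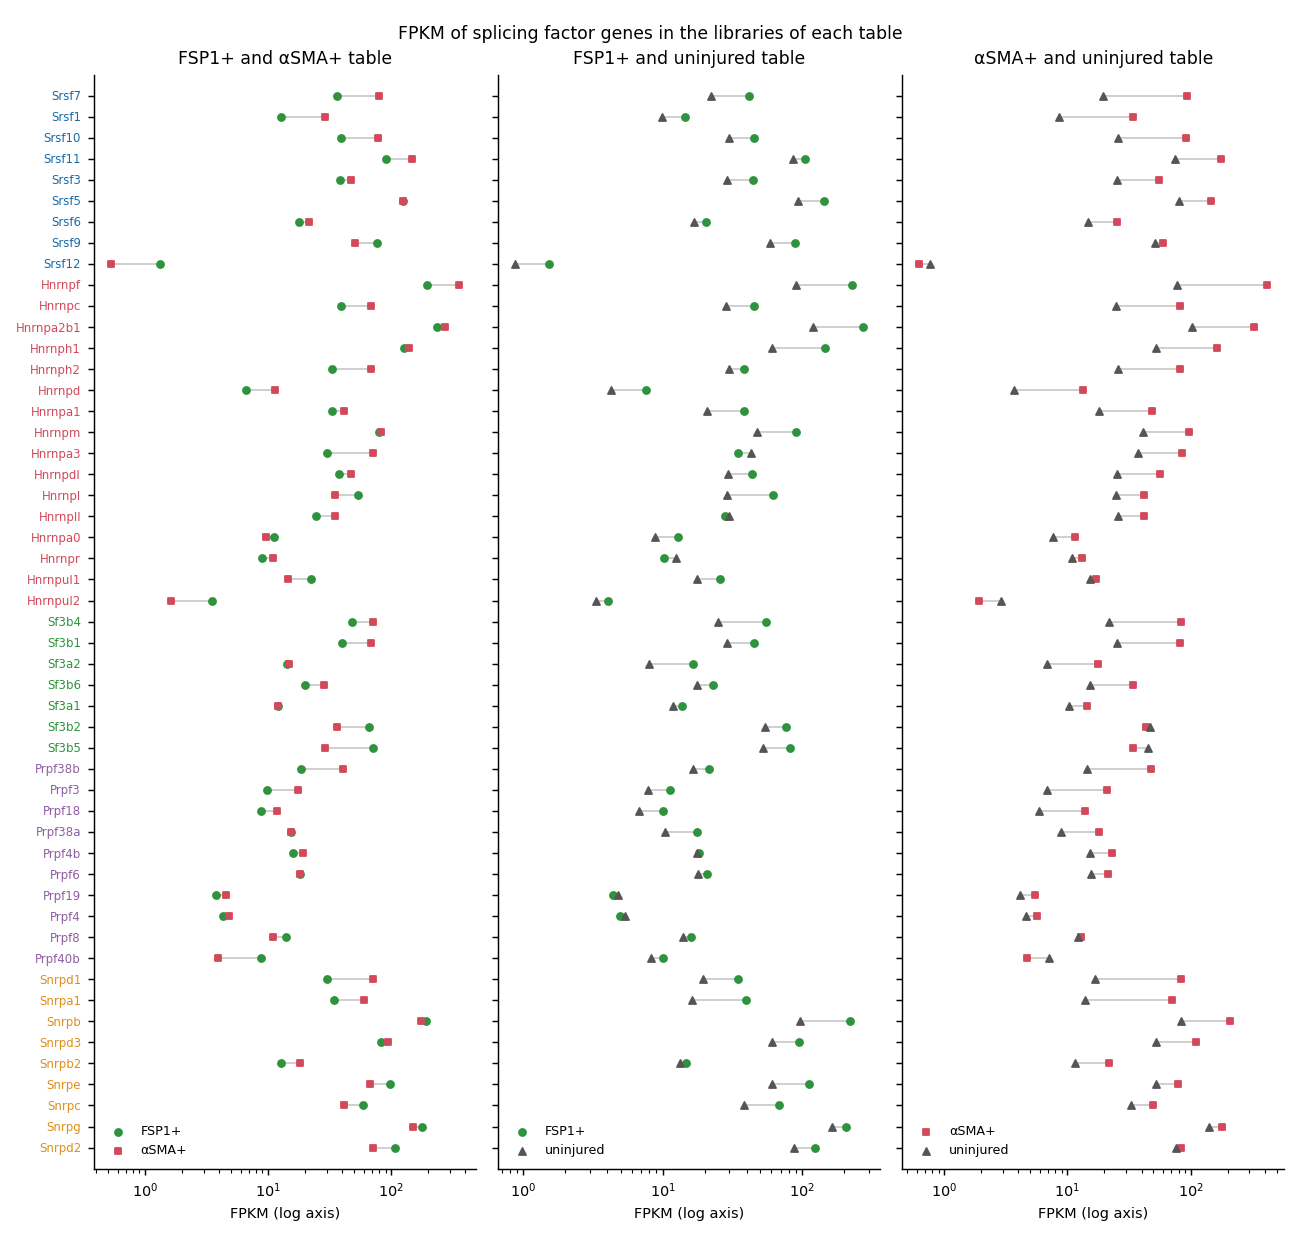
FPKM of 51 splicing factor genes on a log axis, one panel for each table, with green circles for the library labelled FSP1+, red squares for αSMA+ and grey triangles for uninjured, joined by a line within each gene. Gene names are coloured by family and ordered within it by the ratio of αSMA+ over uninjured. Hnrnpf lies farthest apart in the panel of αSMA+ and uninjured, at 418 and 78.0 FPKM.

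Among the SR proteins, the 8 measured Srsf genes all lay above 0 in αSMA+ over uninjured, 5 of them at least 2-fold, with a median of 1.18, though Srsf9 turned below 0 on the TPM scale. Srsf7, an SR protein with a zinc knuckle that also takes part in mRNA export (chromosome 17, 80200080 to 80207305), read 94.0 FPKM in αSMA+ and 19.3 FPKM in uninjured, a log2 ratio of 2.23. In the table of the sorted libraries Srsf7 read 36.4 FPKM in FSP1+ and 79.3 FPKM in αSMA+, a ratio of -1.10, and in FSP1+ over uninjured it read 41.8 and 22.2 FPKM, a ratio of 0.88. Its library labelled αSMA+ thus stood above both others by more than 2-fold, but fell short of 2-fold above FSP1+ on the TPM scale and relative to genes of like GC content. Srsf1, the classic SR protein that binds exonic enhancers and supports constitutive splicing (chromosome 11, 88047373 to 88053757), was likewise highest in αSMA+. Srsf1 read 34.2 FPKM in αSMA+ and 8.60 FPKM in uninjured, a ratio of 1.87. It read 12.7 FPKM in FSP1+ and 28.8 FPKM in αSMA+, a ratio of -1.13, and 14.5 and 9.90 FPKM in FSP1+ and uninjured, a ratio of 0.51.

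Srsf10, which turns into a splicing repressor when it loses its phosphates, read 92.0 FPKM in αSMA+ and 25.8 FPKM in uninjured, a ratio of 1.79. Against FSP1+ it lay just short of 2-fold, at 39.3 FPKM in FSP1+ and 77.6 FPKM in αSMA+, a ratio of -0.96. Srsf11, an SR-related protein, was with Srsf5 the most abundant of the 9 Srsf members. Srsf11 read 176 FPKM in αSMA+ and 74.3 FPKM in uninjured, a ratio of 1.23. Srsf3, the smallest SR protein, read 55.9 and 25.1 FPKM, a ratio of 1.12. Srsf5 read 147 FPKM in αSMA+ and 80.5 FPKM in uninjured, a ratio of 0.86 below the threshold, and 124 FPKM in FSP1+ against 124 FPKM in αSMA+, where the sign of so small a ratio turned when ratios were centred on the median. Srsf6 read 25.4 and 14.6 FPKM in αSMA+ and uninjured, a ratio of 0.75. Srsf9 differed least between these libraries, at 59.9 and 51.0 FPKM, a ratio of 0.23 that turned to -0.39 on the TPM scale and to -0.02 through the third library, and it read higher in FSP1+ (76.9 FPKM) than in αSMA+ (50.5 FPKM). The 9 Srsf genes lay close together in FSP1+ over uninjured, from 0.27 in Srsf6 to 0.88 in Srsf7, and none reached 2-fold. Srsf12, which counteracts other SR proteins, was the least abundant member, at 1.34 FPKM in FSP1+, 0.532 FPKM in αSMA+ and, in the table of FSP1+ and uninjured, 0.877 FPKM in uninjured.

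Of the 16 Hnrnp genes, which encode heterogeneous nuclear ribonucleoproteins, 10 were at least 2-fold higher in αSMA+ than in uninjured, with a median of 1.19, and Hnrnpul2 lay below 0, joined on the TPM scale by Hnrnpa0, Hnrnpr and Hnrnpul1. The proteins hnRNP F and hnRNP H bind runs of G in exons and introns, and their genes Hnrnpf, Hnrnph1 and Hnrnph2 were all among the 10. Hnrnpf (chromosome 6, 117900340 to 117925622) had the highest ratio of all members, at 418 FPKM in αSMA+ and 78.0 FPKM in uninjured, a ratio of 2.41. It also led the members in FSP1+ over uninjured, at 226 and 89.9 FPKM, a ratio of 1.32. Between the sorted libraries Hnrnpf read 197 FPKM in FSP1+ and 352 FPKM in αSMA+, a ratio of -0.84. GENCODE M21 holds 7 near-identical pseudogenes of Hnrnpf, which makes its values uncertain. Hnrnph1 read alike in both sorted libraries, with 127 FPKM in FSP1+ and 139 FPKM in αSMA+, against 60.4 FPKM in uninjured in the table with FSP1+. Its ratios over uninjured were 1.26 in FSP1+ and 1.64 in αSMA+. Hnrnph2, its X-linked paralog, differed instead between the sorted libraries, at 33.2 FPKM in FSP1+ and 68.9 FPKM in αSMA+, a ratio of -1.03, and read 81.7 and 25.8 FPKM in αSMA+ and uninjured, a ratio of 1.63. Its ratio in FSP1+ over uninjured was 0.35.

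The hnRNP A proteins bind splicing silencers. Hnrnpa2b1 was the most abundant of them, at 327 FPKM in αSMA+ and 104 FPKM in uninjured, a ratio of 1.65, and at 272 and 119.6 FPKM in FSP1+ and uninjured, a ratio of 1.18. Both sorted libraries thus stood above uninjured by more than 2-fold, with 236 FPKM in FSP1+ and 276 FPKM in αSMA+ between themselves. Hnrnpa3 parted the sorted libraries most among the members lower in FSP1+, at 29.9 and 71.6 FPKM in FSP1+ and αSMA+, a ratio of -1.23. Against uninjured Hnrnpa3 read 84.9 and 37.4 FPKM in the αSMA+ table (ratio 1.16) and 34.3 and 43.2 FPKM in the FSP1+ table (ratio -0.32), so the 2 sorted libraries lay on opposite sides of uninjured. GENCODE M21 holds 34 near-identical pseudogenes of Hnrnpa3, which makes its values uncertain. Hnrnpa1, with 14 such pseudogenes, read 49.0 FPKM in αSMA+ and 18.1 FPKM in uninjured, a ratio of 1.39. Hnrnpa0, which binds AU-rich mRNA, read 11.5 and 7.68 FPKM, a ratio of 0.52.

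Hnrnpc, a core packaging protein that binds runs of U, read 81.7 FPKM in αSMA+ and 24.6 FPKM in uninjured, a ratio of 1.69. Hnrnpd, known as AUF1 for its part in the decay of AU-rich mRNA, read 13.4 and 3.69 FPKM, a ratio of 1.62, and its relative Hnrnpdl read 56.2 and 25.5 FPKM, a ratio of 1.11. Hnrnpm, which binds GU-rich sites, read 97.1 and 40.9 FPKM, a ratio of 1.23. The FSP1+ over uninjured ratios of these 4 genes were 0.64 for Hnrnpc, 0.70 for Hnrnpd, 0.55 for Hnrnpdl and 0.93 for Hnrnpm, all short of 2-fold.

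Hnrnpl and its paralog Hnrnpll, both binders of CA-rich RNA, behaved differently. Hnrnpl was the member at least 2-fold higher in FSP1+ than in uninjured but not in αSMA+, with 62.2 and 28.7 FPKM in FSP1+ and uninjured, a ratio of 1.09, and 41.7 and 24.9 FPKM in αSMA+ and uninjured, a ratio of 0.72. Between the sorted libraries its ratio was 0.61. Hnrnpll, known for skipping exons of CD45 in lymphocytes, read 24.4 FPKM in FSP1+ and 35.1 FPKM in αSMA+, a ratio of -0.51, and its entry also holds a small RNA gene, Gm22215, whose strand differs or is not known. Hnrnpr had a ratio of -0.26 in FSP1+ over uninjured and 0.25 in αSMA+ over uninjured. Hnrnpul1 read 22.4 FPKM in FSP1+ and 14.4 FPKM in αSMA+, a ratio of 0.60. Hnrnpul2, which acts in the response to DNA breaks, was the least abundant Hnrnp gene, at 1.92 FPKM in αSMA+ and 2.88 FPKM in uninjured, a ratio of -0.41, and at 3.51 FPKM in FSP1+ against 1.62 FPKM in αSMA+, a ratio of 0.78.

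**Figure D3:**
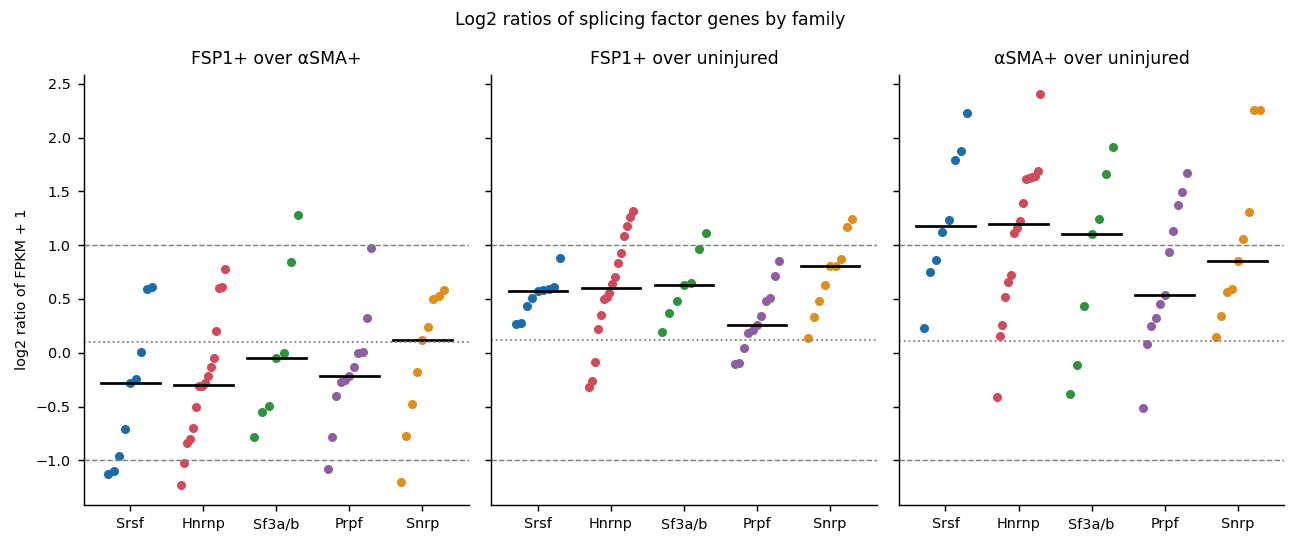
Log2 ratio of FPKM + 1 of each measured member by family in each pair of libraries, with black bars at family medians, dashed lines at 2-fold and a dotted line at the median of all named protein-coding genes. In αSMA+ over uninjured the medians were 1.18 for Srsf, 1.19 for Hnrnp, 1.10 for Sf3a and Sf3b, 0.54 for Prpf and 0.86 for Snrp, and no point lay below the lower dashed line.

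The 7 Sf3a and Sf3b genes encode parts of one particle, and they spread from -0.39 to 1.91 in αSMA+ over uninjured, with a median of 1.10 and 4 of them at least 2-fold higher. Sf3b1, the large subunit that grips the branch point, read 81.7 FPKM in αSMA+ and 25.1 FPKM in uninjured, a ratio of 1.66, and 39.5 FPKM in FSP1+ against 68.9 FPKM in αSMA+, a ratio of -0.79. Sf3b4, which contacts the RNA near the branch point, read 84.3 and 21.6 FPKM in αSMA+ and uninjured, a ratio of 1.91, and 55.3 and 24.99 FPKM in FSP1+ and uninjured, a ratio of 1.11. The entry of Sf3b4 holds a small RNA gene, Gm22027, on the same strand, which can add to its FPKM. Sf3b6, which lies at the branch adenosine, read 34.0 and 15.3 FPKM in αSMA+ and uninjured, a ratio of 1.10. Of the SF3A genes, Sf3a2 read 17.6 and 6.87 FPKM, a ratio of 1.24, and Sf3a1 14.3 and 10.3 FPKM, a ratio of 0.43 that turned to -0.15 on the TPM scale. Sf3b2 and Sf3b5 went the other way. Sf3b5, a small subunit (chromosome 10, 13008450 to 13009183), was the member at least 2-fold higher in FSP1+ than in αSMA+, at 71.4 and 28.8 FPKM, a ratio of 1.28. It read 34.2 FPKM in αSMA+ and 44.9 FPKM in uninjured, a ratio of -0.39, and 82.0 and 51.9 FPKM in FSP1+ and uninjured, a ratio of 0.65, so αSMA+ was its lowest library. The GENCODE transcript of Sf3b5 reaches farther upstream than its entry. Sf3b2, which binds Sf3b4 in the complex, read 66.2 FPKM in FSP1+ and 36.5 FPKM in αSMA+, a ratio of 0.84, and 43.3 and 46.9 FPKM in αSMA+ and uninjured, a ratio of -0.12.

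The 11 Prpf genes had the lowest family median in αSMA+ over uninjured, 0.54, with 4 genes at least 2-fold higher, and this median turned to -0.06 on the TPM scale. Prpf38b, a relative of the tri-snRNP protein Prpf38a, read 48.0 FPKM in αSMA+ and 14.4 FPKM in uninjured, a ratio of 1.67, and 18.5 FPKM in FSP1+ against 40.5 FPKM in αSMA+, a ratio of -1.09. Its value in FSP1+ was near that in uninjured, with a ratio of 0.34. Prpf38a itself lay just short of 2-fold, at 18.1 and 8.96 FPKM in αSMA+ and uninjured, a ratio of 0.94. Prpf3 and Prpf4 are partners on the U4/U6 snRNP. Prpf3 read 20.9 and 6.78 FPKM in αSMA+ and uninjured, a ratio of 1.49, while Prpf4 read 5.72 and 4.65 FPKM, a ratio of 0.25. Prpf18, which acts in the later catalytic step, read 14.0 and 5.85 FPKM, a ratio of 1.13.

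Prpf40b, a homolog of a yeast U1 snRNP protein, lies on chromosome 15 (99295239 to 99317007). It read 4.69 and 7.10 FPKM in αSMA+ and uninjured, a ratio of -0.51, the lowest of all members. Prpf40b read 8.71 FPKM in FSP1+ and 3.96 FPKM in αSMA+, a ratio of 0.97 just short of 2-fold. The Prpf genes that follow differed little. Prpf8, the scaffold at the centre of the spliceosome, read 12.9 and 12.1 FPKM in αSMA+ and uninjured, a ratio of 0.09, and 13.9 and 10.9 FPKM in FSP1+ and αSMA+, a ratio of 0.33. Prpf6, which bridges parts of the tri-snRNP, read 18.05 FPKM in FSP1+ and 18.1 FPKM in αSMA+. Over uninjured its ratios were 0.21 in FSP1+ and 0.45 in αSMA+, and both turned below 0 on the TPM scale. Prpf4b, a kinase of the tri-snRNP, had ratios of 0.04 and 0.54, which also turned below 0 on the TPM scale. Prpf19, a ubiquitin ligase that helps to activate the spliceosome, was the least abundant Prpf gene in FSP1+, at 3.81 FPKM, and read 4.58 FPKM in αSMA+, above Prpf40b. Its ratio of 0.32 in αSMA+ over uninjured turned to -0.21 on the TPM scale.

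The Sm ring around each of the spliceosomal RNAs but U6 holds 1 copy of each Sm protein, and its genes Snrpb, Snrpd1, Snrpd2, Snrpd3, Snrpe and Snrpg differed among themselves. Snrpd1 read 83.9 FPKM in αSMA+ and 16.7 FPKM in uninjured, a ratio of 2.26, and 30.2 FPKM in FSP1+ against 70.8 FPKM in αSMA+, a ratio of -1.20. Snrpd1 read 34.6 and 19.3 FPKM in FSP1+ and uninjured, a ratio of 0.81. Snrpb was slightly higher in FSP1+ (190.5 FPKM) than in αSMA+ (175 FPKM), a ratio of 0.12 that turned to -0.13 through the third library. Snrpb was lower in uninjured. Its ratios over uninjured were 1.17 in FSP1+, at 219 and 96.5 FPKM, and 1.31 in αSMA+, at 208 and 83.5 FPKM. Snrpd3 reached 111 FPKM in αSMA+ and 52.7 FPKM in uninjured, a ratio of 1.05.

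The other Sm genes among the members stayed within 2-fold in every pair. Snrpg read 179 FPKM in FSP1+ and 152 FPKM in αSMA+, and 179.6 and 141 FPKM in αSMA+ and uninjured, a ratio of 0.35 that turned to -0.28 on the TPM scale. Snrpe read 97.2 and 67.1 FPKM in FSP1+ and αSMA+, a ratio of 0.53. Snrpd2 had the highest ratio of the Snrp genes in FSP1+ over αSMA+, at 107 and 71.1 FPKM, a ratio of 0.58, and in αSMA+ over uninjured its ratio of 0.15 turned to -0.48 on the TPM scale and to -0.10 through the third library. Snrpa1 and Snrpb2 encode partner proteins of the U2 snRNP. Snrpa1 (chromosome 7, 66060336 to 66074587) read 70.8 FPKM in αSMA+ and 14.0 FPKM in uninjured, a ratio of 2.26, and 39.6 and 16.2 FPKM in FSP1+ and uninjured, a ratio of 1.24. Snrpb2 read 21.7 and 11.5 FPKM in αSMA+ and uninjured, a ratio of 0.86. Snrpc, a U1 snRNP protein with 7 near-identical pseudogenes, read 59.0 FPKM in FSP1+ and 41.5 FPKM in αSMA+, a ratio of 0.50.

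Several measured properties moved with these results. Of the 52 members, 20 had at least 1 near-identical pseudogene in GENCODE M21, to which short reads can also align, and their values are uncertain for that reason. In αSMA+ over uninjured the median was 1.27 in the 20 members with such pseudogenes, of which 13 were higher, and 0.66 in the 31 measured members without, of which 14 were higher. In FSP1+ over αSMA+, 4 of the 6 lower members had pseudogenes, namely Hnrnpa3, Snrpd1, Srsf7 and Hnrnph2. Transcripts of the members had a median GC content of 46.8% and those of all named protein-coding genes 49.5%. The FSP1+ over αSMA+ ratio moved with GC content across genes, with a Spearman correlation of 0.55 over the 52 members and 0.42 over 10053 genes, which all share the same pair of libraries. Among genes whose GC content lay below the median of the members, the median FSP1+ over αSMA+ ratio was -0.31 in the members and -0.39 in all genes. At or above that GC content it was -0.0024 in the members and 0.37 in all genes. In αSMA+ over uninjured the correlation with GC content was -0.41 over the members and -0.14 over all genes, and in FSP1+ over uninjured -0.01 and 0.30. With transcript length it was -0.24 and 0.07 in αSMA+ over uninjured, and -0.40 and -0.12 in FSP1+ over uninjured. In FSP1+ over αSMA+ the correlation with length was 0.04 over the members and -0.17 over all genes. With each ratio taken relative to genes of like GC content, 1 member was lower in FSP1+ than in αSMA+, Sf3b4 at -1.28. In αSMA+ over uninjured, 22 of 51 members were higher on that basis, with a median of 0.88. The share of all genes on that basis is not given, so these counts stand without a comparison. The part of GC content, of transcript length and of pseudogenes in these results was not tested.

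**Figure D4:**
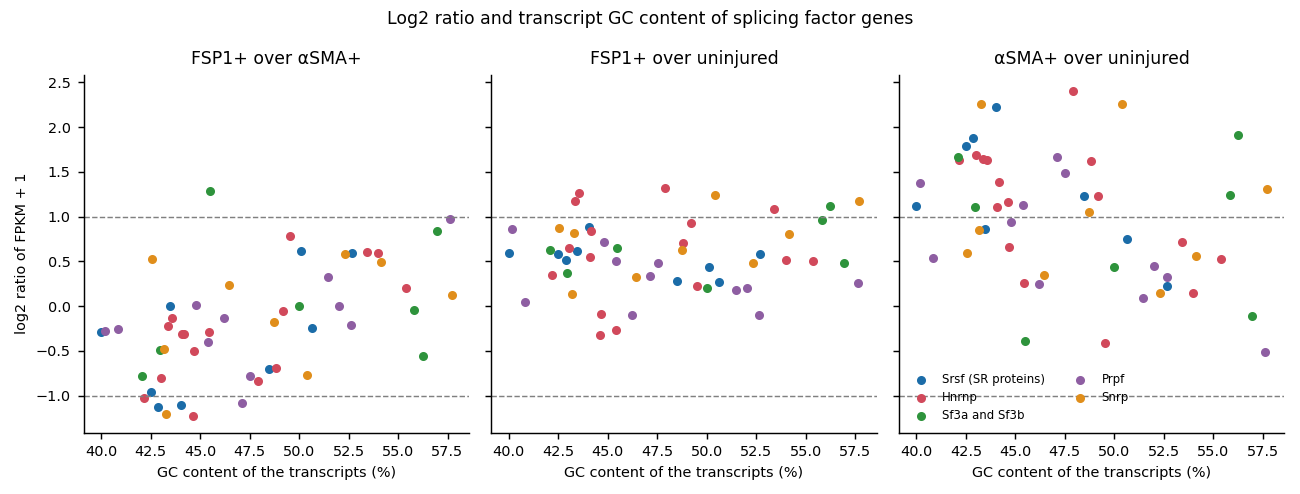
Log2 ratio of FPKM + 1 against the GC content of the transcripts, in percent, for each measured member in each pair of libraries, coloured by family, with dashed lines at 2-fold. In FSP1+ over αSMA+ the low ratios gather at low GC content, with a Spearman correlation of 0.55 over 52 genes, and Sf3b5 stands alone above 2-fold.

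Related genes of RNA processing were read from lists chosen for their role. Of all genes, 18.3% were higher and 6.38% lower in αSMA+ than in uninjured, with a median of 0.11. On the TPM scale these were 9.63% and 19.7%, with a median of -0.43. In FSP1+ over uninjured 15.2% of all genes were higher and 12.1% lower (median 0.12). In FSP1+ over αSMA+ 20.1% were higher and 12.7% lower (median 0.10, or 0.19 on the TPM scale). In αSMA+ over uninjured, 17 of 52 other named factors of the spliceosome and splice sites (from a list of 64) reached 2-fold upward and 0 downward, with a median of 0.70, or 10 upward and 3 downward on the TPM scale. In FSP1+ over uninjured 7 of them were higher and 0 lower (median 0.48), and in FSP1+ over αSMA+ 4 were higher and 5 lower (median -0.12, or 0.02 on the TPM scale). U2af1, which reads the AG at the end of the intron, read 35.2 FPKM in FSP1+ and 98.3 FPKM in αSMA+, a ratio of -1.46, and had a ratio of 2.07 in αSMA+ over uninjured. Ppil1, a peptidyl-prolyl isomerase of the spliceosome, went the other way, at 23.5 FPKM in FSP1+ and 3.36 FPKM in αSMA+, a ratio of 2.49. Snu13, which binds the U4 RNA, read 142 and 39.1 FPKM in αSMA+ and uninjured, a ratio of 1.84. Eftud2, a GTPase of the U5 snRNP, read high in both sorted libraries, with ratios over uninjured of 1.54 in FSP1+ and 1.38 in αSMA+. Puf60 differed less, with ratios of 0.66 and 0.63.

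Of 39 other named splicing regulators (of 57 listed), 37 were measured in αSMA+ over uninjured, 14 were higher and 0 lower, with a median of 0.83, or 6 and 1 with a median of 0.23 on the TPM scale. In FSP1+ over uninjured 4 of 38 were higher and 1 lower (median 0.29), and in FSP1+ over αSMA+ 2 of 37 were higher and 5 lower (median -0.39). Tra2b, an SR-like activator of exons, read 32.5 FPKM in FSP1+ and 93.6 FPKM in αSMA+, a ratio of -1.498, and its ratio in αSMA+ over uninjured was 2.17. Rbm24, a muscle splicing regulator, read 6.43 and 1.39 FPKM in FSP1+ and αSMA+, a ratio of 1.63. Rbm39 was the most abundant of this list and differed little, at 236 and 264 FPKM in the sorted libraries. Pcbp1 and Ewsr1, both RNA-binding proteins of wide expression, had ratios of 1.51 and 1.43 in αSMA+ over uninjured.

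Among 14 named genes of SR protein kinases, phosphatases and nuclear import (of 20 listed), 6 were higher and 1 lower in αSMA+ than in uninjured, with a median of 0.98, or 0 and 2 with a median of 0.41 on the TPM scale. The phosphatase subunit genes Ppp1cc and Ppp1cb had ratios of 1.49 and 1.59, and Ppig, a cyclophilin that binds SR proteins, read 54.7 and 18.6 FPKM. Dyrk1b, a kinase, was the gene that was lower, at 0.858 FPKM in αSMA+ and 3.81 FPKM in uninjured, a ratio of -1.37, while its paralog Dyrk1a had a ratio of 0.98. None of these 14 genes reached 2-fold in FSP1+ over uninjured (median 0.55), and in FSP1+ over αSMA+ 2 were higher, Srpk3 and Dyrk1b, and 0 lower (median -0.24). Of 15 named genes of snRNP assembly (of 18 listed), 4 were higher and 0 lower in αSMA+ than in uninjured (median 0.42, or -0.15 on the TPM scale). In FSP1+ over uninjured 0 were higher and 1, Gemin8, was lower (median 0.09, or -0.12 on the TPM scale), and in FSP1+ over αSMA+ 1 was higher and 2 were lower (median -0.23). The genes of the SMN complex split in FSP1+ over αSMA+, with Gemin5 at -1.68, Strap at -1.37, Smn1 at -0.21 and Gemin7 at 1.35.

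Of 15 named genes of the exon junction complex and nonsense-mediated decay (of 20 listed), which mark spliced mRNA and destroy faulty mRNA, 3 were higher and 0 lower in αSMA+ than in uninjured (median 0.39, or -0.22 on the TPM scale). Among these were Rnps1 (2.01) and Eif4a3 (1.51), and Magoh lay at 0.95. Rnps1 was also the 1 gene higher in FSP1+ than in uninjured, at 1.19, where the list had a median of 0.27 and 0 lower. In FSP1+ over αSMA+ 0 were higher and 0 lower (median 0.04, or -0.17 through the third library), with Smg9 highest at 0.74. The minor spliceosome removes the rare U12-type introns. Of its 10 named genes (of 14 listed), 4 were higher in FSP1+ than in αSMA+ and 1 lower, with a median of 0.24. Of all genes 20.1% were higher there and 12.7% lower, with a median of 0.10, also above 0, where the members had -0.23. Through the third library the median was 0.01 in this list and -0.11 in all genes. Zmat5, a protein of the U11/U12 snRNP, read 28.9 FPKM in FSP1+ and 7.41 FPKM in αSMA+, a ratio of 1.83, while Snrnp48 of the same particle read 9.88 and 20.8 FPKM, a ratio of -1.005. Zcrb1 hardly differed, at 0.09. Over uninjured, 1 of the 10 was higher and 0 lower in each sorted library, with medians of 0.49 in FSP1+ and 0.41 in αSMA+, the latter turning to -0.17 with 4 lower on the TPM scale.

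In both pairs that include αSMA+, genes of ribosome biogenesis stood farther apart than those of splicing, but not in FSP1+ over uninjured. Of 21 named genes (of 30 listed), 19 were higher and 0 lower in αSMA+ than in uninjured (median 2.30, or 1.72 on the TPM scale), 18 were lower and 0 higher in FSP1+ than in αSMA+ (median -1.65), and 1 was higher and 0 lower in FSP1+ than in uninjured (median 0.41). Rrs1, a ribosome assembly factor, read 14.7 FPKM in FSP1+ and 149.6 FPKM in αSMA+, a ratio of -3.26. Fbl, the methyltransferase of box C/D particles, read 45.6 and 167 FPKM, a ratio of -1.85, and Npm1, an abundant nucleolar protein, 159 and 433 FPKM, a ratio of -1.44. Nop10, of box H/ACA particles, lay above 0 at 0.62, as did Ubtf, a factor of RNA polymerase I, at 0.18, which turned below 0 through the third library. Polr1c, a polymerase subunit, was short of 2-fold at -0.69. Snu13 is shared by box C/D particles and the spliceosome.

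**Figure D5:**
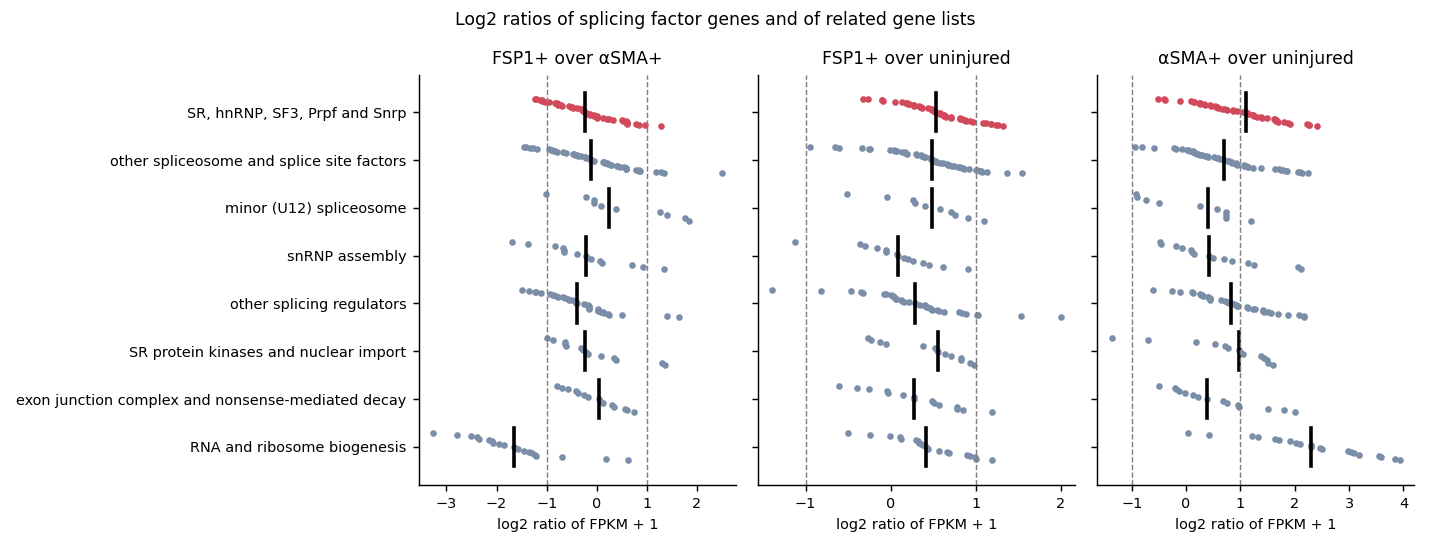
Log2 ratio of FPKM + 1 of each measured gene in the splicing factor set (red) and in 7 related lists (blue-grey) in each pair of libraries, with black bars at medians and dashed lines at 2-fold. In αSMA+ over uninjured the medians were 1.10 for the splicing factor genes, 0.70 for other spliceosome factors, 0.83 for other splicing regulators and 2.30 for ribosome biogenesis.

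Markers of other cell types also moved between the libraries. All 13 named endothelial markers (of 15 listed) were higher in FSP1+ than in uninjured and 9 in αSMA+ than in uninjured, and their summed level was 1309 FPKM in FSP1+ against 99.1 FPKM in uninjured, and 346 FPKM in αSMA+ against 85.9 FPKM in uninjured. Pecam1 read 157 FPKM in FSP1+ and 41.8 FPKM in αSMA+, and no marker of this list was at 0 there. All 11 named macrophage and leukocyte markers (of 14 listed) were higher in each sorted library than in uninjured. On the TPM scale 11 were higher in FSP1+ and 9 in αSMA+. They summed to 4413 FPKM in FSP1+ against 107.6 FPKM in uninjured and to 1589 FPKM in αSMA+ against 93.2 FPKM in uninjured. Ptprc (CD45) read 12.1 FPKM in FSP1+ and 9.001 FPKM in αSMA+. Cell cycle genes separated the sorted libraries, since 14 of 16 were higher in FSP1+ than in αSMA+, summing to 377 and 95.2 FPKM. Against uninjured 15 of the 16 were higher in FSP1+, summing to 433 and 89.9 FPKM, and 1, Pcna, was higher in αSMA+. Pericyte and smooth muscle markers summed to 449 FPKM in FSP1+ and 130.7 FPKM in αSMA+, and cardiomyocyte markers to 35.2 and 59.7 FPKM. Of 6 cardiomyocyte markers, 4 were higher in αSMA+ than in uninjured, or 2 on the TPM scale, summing to 70.7 and 24.96 FPKM. Fibroblast markers were present in every library, with Col1a1 at 2357 FPKM in uninjured, 1034 FPKM in FSP1+ and, in the table with uninjured, 316 FPKM in αSMA+, although 8 of 10 were lower in FSP1+ than in uninjured and 4 of 10 lower in αSMA+. Between the sorted libraries 4 of the 10 were higher in FSP1+ and 3 lower. Pdgfra, a receptor that marks fibroblasts, was the farthest apart, at 16.5 FPKM in FSP1+ and 323 FPKM in αSMA+, a ratio of -4.21, and its entry holds a small RNA gene, Mir7025, on the same strand. The matrix genes Dcn (-1.88) and Lum (-1.44) were lower in FSP1+ as well. The 4 higher in FSP1+ were Col1a1 (1.75), Postn (1.72), Col3a1 (1.64) and Col1a2 (1.56), and the median of the 10 was 0.81. The entry of Col3a1 also holds a small RNA gene, Gm47302, on the same strand. The part of these cell types in the splicing factor results was not tested.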

How the data were processed

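RNA sequencing was performed on 3 libraries, 1 per group. The authors deposited FPKM made with Cuffdiff, in 3 tables of 31930 entries that each hold 2 libraries and were scaled separately. The version of Cuffdiff is not given in the sources used here. The tables also hold the fold changes, test statistics and p-values of the authors' own comparisons, which were not used. An offset of 0.001 in every value was removed, and 0 columns belonged to other samples.

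Entries were named by GRCm38 position from RefSeq (GRCm38.p6) and GENCODE M21 where 1 entry stood at its locus and the overlap with a gene reached 0.8 of the joint span, any other gene staying below 0.7. Symbols were given to 17075 entries (15189 protein-coding genes), while 8265 entries at shared loci got none. The labels carry differing library numbers in title and description, and groups were taken from the titles. Counts and medians of members are given beside those of all named protein-coding genes measured.

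Genes were named by rule: members at least 2-fold apart in any pair, the 4 most abundant members and the highest and lowest ratio of each family, and of each of 7 pathway lists the 3 most abundant genes and the highest and lowest ratio of FSP1+ over αSMA+. Values of 1 member and of 1 gene of a list are not reported here. The remaining members, other genes named among small counts and the printed promoters were chosen with their values known. The members and lists were chosen with earlier results of these data known. Near-identical pseudogenes are GENCODE pseudogene transcripts aligned to a member with minimap2 2.31 at 90% identity or more over 300 bases or more. GC content and length are medians over protein-coding transcripts. Alternatives were other pseudocounts, filters, scalings, routes, overlaps and thresholds, and leaving out small RNA entries. The calculation was tested on simulated data with large known changes in genes that were not low. That test covers the arithmetic only, and not changes near 2-fold, low genes or variation between libraries. Scripts ran under Python 3.11.15 with SciPy 1.17.1, NumPy 2.4.6, pandas 2.3.3 and matplotlib 3.10.9.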

Additional observations from a re-analysis of the deposited data

Results flagged for a closer look

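For 9 members the library labelled FSP1+ and the library labelled αSMA+ lay on opposite sides of uninjured, and each is given as the log2 ratio over uninjured in FSP1+ minus that in αSMA+. With 1 library per group these differences were not tested, and both ratios of a gene rest on the same uninjured library. Through the third library the FSP1+ over uninjured ratios of Hnrnpll, Prpf4 and Prpf19 turned above 0. On the TPM scale the αSMA+ over uninjured ratios of Hnrnpr, Prpf4 and Prpf19 turned below 0, so that both sorted libraries then lay below uninjured. Each difference is also the FSP1+ over αSMA+ ratio taken through uninjured, which had a median shift of -0.25 from direct ratios because the tables were scaled separately. FSP1+ lay below and αSMA+ above uninjured for Hnrnpa3 (difference -1.48, direct ratio -1.23), Hnrnpll (-0.75, direct -0.51), Hnrnpr (-0.52, direct -0.28), Prpf19 (-0.43, direct -0.22) and Prpf4 (-0.35, direct -0.13). FSP1+ lay above and αSMA+ below uninjured for Sf3b5 (difference 1.04, direct ratio 1.28), Prpf40b (0.77, direct 0.97), Hnrnpul2 (0.63, direct 0.78) and Sf3b2 (0.60, direct 0.84). Hnrnpa3 was the 1 gene among them with either ratio over uninjured at 2-fold or more, at 1.16 in αSMA+.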

How the results depend on the processing

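No paired analysis was possible because each group has 1 library, and for the same reason no replicate could be left out. In the 3 comparisons, 117 alternative values stayed close to the reported one, meaning within 1.5 times for a count of members and within a 1.5-fold change of the unlogged ratio for a median, 18 moved further, and none changed sign past 2-fold. The median of the members ranged from -0.48 to -0.04 in FSP1+ over αSMA+, from 0.34 to 0.77 in FSP1+ over uninjured and from 0.47 to 1.14 in αSMA+ over uninjured.

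In FSP1+ over αSMA+ the members higher numbered 4 with a pseudocount of 0.1 FPKM, 2 on the TPM scale and 0 at 4-fold. The members lower numbered 3 with a pseudocount of 5 FPKM, 3 on the TPM scale (Hnrnpa3, Snrpd1 and Srsf1), 12 through the third library and 0 at 4-fold. Of all genes on the TPM scale, 23.1% were higher in this pair and 11.8% lower. In FSP1+ over uninjured the members higher numbered 3 on the TPM scale, 15 through the third library and 0 at 4-fold. In αSMA+ over uninjured, TPM gave 14 higher, 2 lower and a median of 0.47, and 4 members, Hnrnpf, Snrpd1, Snrpa1 and Srsf7, were higher at 4-fold. Shares of all genes with other pseudocounts or at 4-fold are not given.

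Chosen after seeing the data, leaving out the 20 members with near-identical pseudogenes left 2 lower in FSP1+ than in αSMA+ (Srsf1 and Prpf38b), 3 higher in FSP1+ than in uninjured (Hnrnph1, Snrpa1 and Snrpb) and 14 higher in αSMA+ than in uninjured, by construction from fewer genes. Taking ratios relative to genes of like GC content, also chosen after seeing the data, left 1 lower in FSP1+ than in αSMA+ (Sf3b4). The cause of the other moves was not tested. The tables give no read numbers, so differences of low genes such as Srsf12 and Hnrnpul2 carry an unknown counting error.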

Other observations

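At 13 further loci a gene of the same families overlapped other entries, so the reads there cannot be assigned to 1 gene. The values below are those of the entry with the highest FPKM in αSMA+ at each locus. This choice can favour high ratios of αSMA+ over the other libraries. At the locus of Srsf2, an SR protein that activates exons, this entry read 275 FPKM in the library labelled αSMA+ and 58.7 FPKM in uninjured, a log2 ratio of 2.21, and 187 against 67.7 FPKM in FSP1+ and uninjured, a ratio of 1.46. The entries at Hnrnpab (2.03), Hnrnpu (1.92), Sf3b3 (1.80), Hnrnpk (1.51), Snrpf (1.31), Snrpa (1.22) and Prpf31 (1.14) were also at least 2-fold higher in αSMA+ than in uninjured. Those at Srsf4 (0.77), Sf3a3 (0.51), Snrpn (-0.02), Hnrnph3 (-0.04) and Prpf39 (-0.15) were not. Of all named protein-coding genes measured, 18.3% were at least 2-fold higher in αSMA+ than in uninjured. At Sf3b3 the entry read 18.6 FPKM in FSP1+ and 45.8 FPKM in αSMA+, a ratio of -1.25. Snrpn encodes a protein very like that of Snrpb, so reads of both may be shared.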
